A study of Mus musculus and Homo sapiens with 14 samples.

Results

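MB1 and Oli-neu, both grown alone, were compared to describe what set these 2 mouse lines apart when neither shared medium with other cells. The comparison rests on 4 of the 14 libraries of the study, 2 of each line, chosen as the monoculture columns of the mouse tables and joined on the mouse gene identifier. The study grew an oligodendrocytic line alone or beside medulloblastoma cells, across an insert with pores, and sequenced poly(A) RNA of both partners. MB1 came from tumours of Atoh1-cre:SmoM2 mice at P12, in which Atoh1 sequences drive the Cre recombinase that switches on SmoM2, an activated form of the hedgehog transducer Smo. Oli-neu is a murine line labelled as oligodendrocyte precursor cells. As background, Oli-neu was made with t-neu, an activated form of the receptor that Erbb2 encodes. Both lines grew in the same medium, with B-27, N-2 and 20 ng/mL of EGF and bFGF. Each group is 1 established line, and whether either line is 1 clone is not given in the sources used here. The 2 libraries of a group are biological replicates by the study's own account, with nothing said of what they share. The p-values below therefore measure the spread between 2 samples of 1 line, and how a line was prepared cannot be told apart from the line.

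Sonic hedgehog medulloblastoma arises from granule neuron precursors of the cerebellum, which divide under hedgehog signals and are marked by Atoh1, by Zic factors and by hedgehog targets such as Gli1 and Ptch1. Oligodendrocyte precursors use the transcription factors Olig1, Olig2 and Sox10, carry the PDGF receptor Pdgfra and the proteoglycan NG2 (Cspg4), and go on to make myelin. Olig1 and Olig2 also act in other neural progenitors, while Sox10 in the brain belongs to oligodendroglia and, outside it, to the neural crest.

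The deposited unit is TPM, which corrects for library size and transcript length, so the sequencing depth is unknown. Values below are TPM after median-ratio scaling of the 4 libraries together. A log2 difference is MB1 minus Oli-neu on the log2(TPM + 1) scale, which understates the difference of low genes. A gene was tested with limma when 2 or more of the 4 libraries reached 1 TPM, and a gene was called when its Benjamini-Hochberg adjusted p was under 0.05. Pseudogenes were left out. They held 25.3% and 25.2% of the deposited TPM in MB1 and 36.0% and 36.6% in Oli-neu. In bulk libraries, fewer cells with a transcript and less of it per cell cannot be told apart.

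Of 11829 genes tested, 5343 (45.2%) were called, 2828 higher in MB1 (23.9%) and 2515 lower (21.3%). These shares are the background for every list below. Both libraries of MB1 lay above both of Oli-neu for 38.5% of the genes tested and below both for 36.9%, so a lack of overlap alone is common. Called genes with a log2 difference of at least 1 numbered 1548 higher (13.1%) and 1292 lower (10.9%). The direction of small differences depended on the scaling. The median log2 difference of all genes tested was 0.01, against 0.39 with TPM as deposited and 0.18 with an equal total over the genes kept. The share of calls that were higher in MB1 was 52.9%, against 77.1% and 65.3% under those scalings. With the same genes kept, the median log2 difference was 0.02 without either MB1 library. When low values were filtered again, it was -0.03 and -0.04 without MB1 library 1 and 2, and most calls were then lower in MB1. Without Oli-neu library 1 and 2 it was 0.04 and 0.03 after that filter. Genes at 1 TPM only in the line with a lone library cannot pass that filter. The counts that follow kept the genes of the full fit. Without Oli-neu library 1, 1693 genes were higher and 1401 lower, and without Oli-neu library 2, 1649 and 1449.

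The transcription factors of the oligodendrocyte lineage were divided between the lines. Of 19 listed, 15 were tested, 6 were higher in MB1 and 4 lower, with a median log2 difference of 0.28, or 0.78 with TPM as deposited and 0.05 to 0.37 with 1 library left out. Sox10 (chromosome 15, 79154908 to 79165240 in GRCm38) was at 0.757 and 0.404 TPM in MB1 and 203 and 223 TPM in Oli-neu. The lines did not overlap (log2 difference -7.09, SE 0.17, adjusted p = 9.49e-05), and Sox10 was under 1 TPM in both MB1 libraries. Myrf, the factor that turns on myelin genes with Sox10, was at 0.399 and 0.363 TPM in MB1 and 3.68 and 3.62 TPM in Oli-neu (log2 difference -1.75, SE 0.11, adjusted p = 0.000476).

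The Olig genes differed in the other direction. Olig1 was at 563 and 722 TPM in MB1 and 197 and 213 TPM in Oli-neu (log2 difference 1.63, SE 0.20, adjusted p = 0.00326), and Olig2 was at 211 and 197 TPM in MB1 and 76.6 and 86.3 TPM in Oli-neu (log2 difference 1.32, SE 0.16, adjusted p = 0.00297). Both genes were well above the testing limit in both lines, with both MB1 libraries above both Oli-neu libraries. Nkx2-2, a homeobox factor of ventral progenitors and of oligodendrocyte differentiation, was at 8.17 and 8.62 TPM in MB1 and listed at 0 in both Oli-neu libraries (adjusted p = 0.000142). Sox8, a close relative of Sox10, was at 81.2 and 69.0 TPM in MB1 and 7.57 and 7.16 TPM in Oli-neu (log2 difference 3.18, SE 0.15, adjusted p = 0.000234). Within this pair, Sox8 was the higher in MB1 and Sox10 the higher in Oli-neu. Sox5, of another Sox group, was at 8.94 and 6.72 TPM against 1.07 and 1.89 TPM (log2 difference 1.84).

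**Figure D1:**
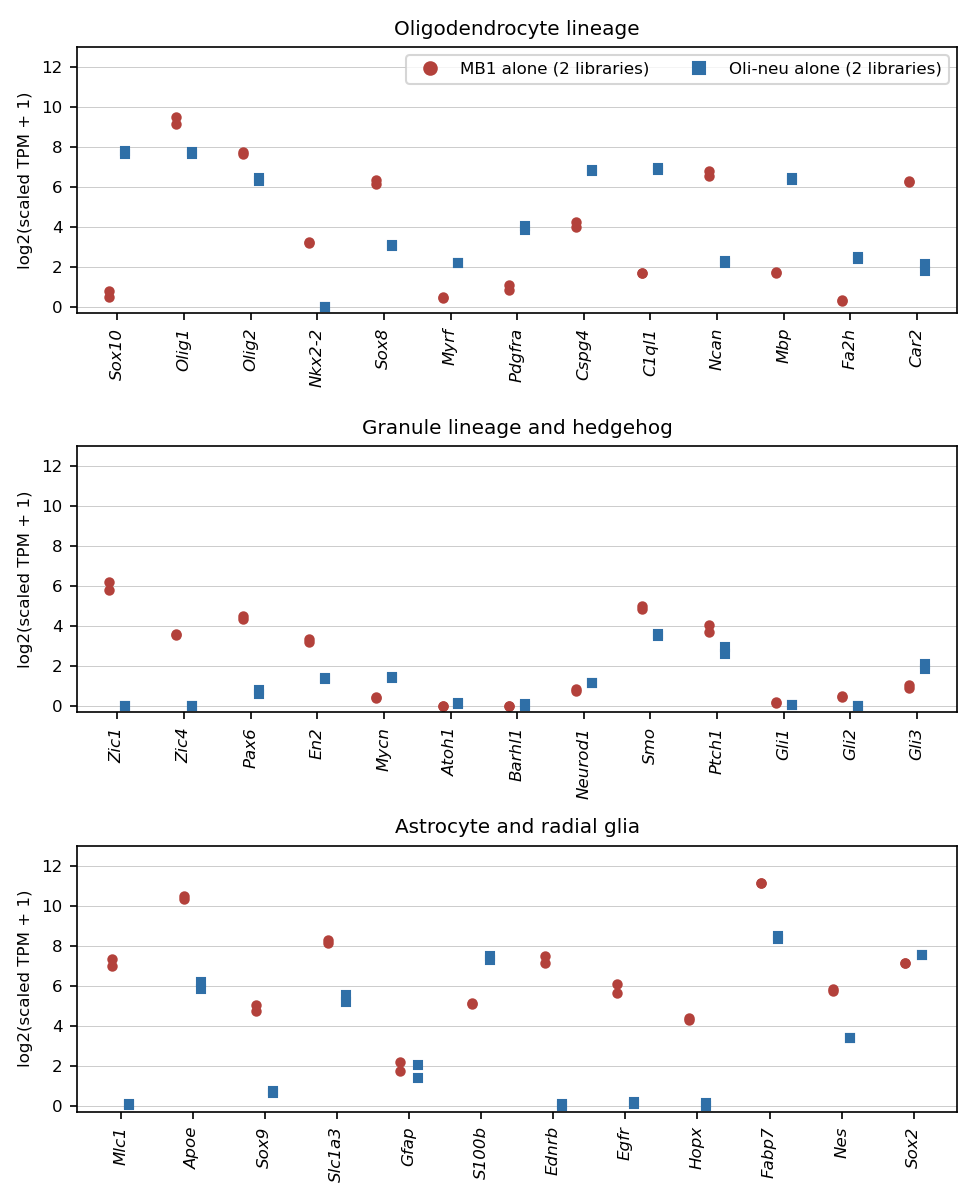
Identity genes in the 4 monoculture libraries. Each point is the log2(scaled TPM + 1) of 1 library, MB1 as circles and Oli-neu as squares. Sox10 and Mbp stand higher in Oli-neu, Zic1, Mlc1 and Egfr in MB1, and Atoh1, Barhl1 and Gli1 lie near 0 in all 4 libraries.

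Markers of oligodendrocyte precursors were mostly lower in MB1. Of 22, 20 were tested, 12 were lower and 4 higher, with a median log2 difference of -0.88, or -0.49 with TPM as deposited. Pdgfra, the receptor through which PDGF drives precursor division, was at 1.15 and 0.783 TPM in MB1 and 15.6 and 13.6 TPM in Oli-neu (log2 difference -2.99, SE 0.16, adjusted p = 0.000304). Cspg4 was at 14.9 and 18.3 TPM against 111 and 113 TPM (log2 difference -2.69, SE 0.16, adjusted p = 0.0004), and C1ql1, a secreted C1q-like protein, was at 2.22 and 2.31 TPM against 121 and 115 TPM (log2 difference -5.19, SE 0.13, adjusted p = 0.000106). For these 3 genes the lines did not overlap, and Cspg4 stayed above 10 TPM in MB1. Rgcc, a cell cycle regulator, was at 17.8 and 19.9 TPM against 174 and 168 TPM (log2 difference -3.11). Among the genes higher in MB1 were 2 of the cell coat. Neurocan, Ncan, was at 93.2 and 109 TPM in MB1 and 3.52 and 3.91 TPM in Oli-neu (log2 difference 4.43, SE 0.15, adjusted p = 0.000132), and Ptprz1, a receptor phosphatase with chondroitin sulphate chains, was at 202 and 143 TPM against 62.4 and 58.0 TPM (log2 difference 1.48).

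Of 23 myelin genes, 16 were tested, 9 were lower in MB1 and 6 higher, with a median log2 difference of -0.74, or -0.31 with TPM as deposited. Mbp, which encodes myelin basic protein, was at 2.25 and 2.32 TPM in MB1 and 80.9 and 86.5 TPM in Oli-neu (log2 difference -4.69, SE 0.13, adjusted p = 0.000118). Gal3st1, which makes the myelin lipid sulphatide, was at 0.194 and 0.133 TPM against 16.5 and 13.3 TPM (log2 difference -3.76), and Fa2h, which hydroxylates myelin lipids, was at 0.289 and 0.240 TPM against 4.27 and 4.60 TPM (log2 difference -2.10). Mog, made by mature oligodendrocytes, was listed at 0 in both MB1 libraries and at 0 and 0.0175 TPM in Oli-neu. The 6 members higher in MB1 were Trf, Car2, Aspa, Mal, Cnp and Qdpr. Trf, the iron carrier transferrin, was at 249 and 295 TPM in MB1 and 10.1 and 9.00 TPM in Oli-neu (log2 difference 4.69, SE 0.16, adjusted p = 0.000134), and Car2, a carbonic anhydrase, was at 78.1 and 75.1 TPM against 3.43 and 2.54 TPM (log2 difference 4.29, SE 0.17, adjusted p = 0.000161). Aspa, an enzyme that oligodendrocytes use to supply acetate for lipids, was at 4.55 and 4.78 TPM against 0.391 and 0.880 TPM (log2 difference 1.81), and the myelin enzyme Cnp was at 46.8 and 56.7 TPM against 30.6 and 27.0 TPM (log2 difference 0.82). Mal, a membrane protein of myelin, was at 1.53 and 1.51 TPM in MB1 and listed at 0 in both Oli-neu libraries (adjusted p = 0.000756). Without MB1 library 2, Oli-neu library 1 or Oli-neu library 2, Cnp was not called (adjusted p = 0.0526, 0.0599 and 0.098), nor was Qdpr (0.0928, 0.103 and 0.176).

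MB1 carried part of the granule lineage list. Of 29 genes, 17 were tested, 9 were higher in MB1 and 5 lower, with a median log2 difference of 1.11. Zic1 (chromosome 9, 91358058 to 91365810), a zinc finger factor of dorsal and cerebellar progenitors, was at 72.4 and 55.2 TPM in MB1 and 0.00557 and 0 TPM in Oli-neu (adjusted p = 0.000119). Zic4, which lies beside Zic1, was at 11.1 and 10.9 TPM in MB1 and listed at 0 in both Oli-neu libraries (adjusted p = 0.000121). Pax6, a factor of granule precursors and of cortical radial glia, was at 19.5 and 22.0 TPM against 0.515 and 0.789 TPM (log2 difference 3.72, SE 0.16, adjusted p = 0.000185), and En2, which patterns the midbrain and cerebellum, was at 8.31 and 9.40 TPM against 1.57 and 1.66 TPM (log2 difference 1.91, SE 0.13, adjusted p = 0.000595). For these 4 genes both MB1 libraries lay above both Oli-neu libraries.

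Other members of the list, Atoh1, Barhl1 and En1 among them, were at or near 0 in MB1. The cells labelled as coming from Atoh1-cre tumours thus had Atoh1 near 0 while Zic1, Zic4 and Pax6 were present. Atoh1 was at 0 and 0.0124 TPM in MB1 and 0.0739 and 0.106 TPM in Oli-neu, Barhl1 was listed at 0 in both MB1 libraries and at 0 and 0.0967 TPM in Oli-neu, and En1 was at 0.0725 and 0.147 TPM in MB1 and listed at 0 in both Oli-neu libraries. Mycn, which hedgehog signals induce in granule precursors, was lower in MB1, at 0.394 and 0.319 TPM against 1.67 and 1.76 TPM (adjusted p = 0.00224). Meis2, a homeobox factor, was at 0.0116 and 0.00923 TPM in MB1 and 22.1 and 14.1 TPM in Oli-neu (log2 difference -4.21, SE 0.23, adjusted p = 0.000309), and Unc5c, a netrin receptor, was at 0.286 and 0.159 TPM against 4.02 and 4.15 TPM (log2 difference -2.06). Neurod1, a factor of differentiating granule neurons, was at 0.803 and 0.677 TPM against 1.27 and 1.24 TPM. Its call (log2 difference -0.38, SE 0.11, adjusted p = 0.0464) was lost with TPM as deposited (adjusted p = 0.281), and leaving out 1 library gave an adjusted p of 0.0603 without MB1 library 2, 0.135 without Oli-neu library 1 and 0.142 without Oli-neu library 2.

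Hedgehog genes showed a receptor side present in both lines and ligands and Gli1 near 0 in both. Of 22 genes, 11 were tested, 6 were higher in MB1 and 2 lower, with a median log2 difference of 0.71. The ligand Shh was at 0.0214 and 0.0440 TPM in MB1 and 0 and 0.00939 TPM in Oli-neu. Smo, which passes the signal into the cell, was at 28.5 and 31.8 TPM in MB1 and 10.6 and 11.1 TPM in Oli-neu (log2 difference 1.39, SE 0.14, adjusted p = 0.00172). Whether reads of the SmoM2 allele count under Smo, and reads of t-neu under Erbb2, is not known here. The co-receptor Gas1 was at 41.2 and 50.2 TPM against 17.5 and 18.5 TPM (log2 difference 1.29), and Disp1, which releases hedgehog ligands, was at 3.06 and 3.35 TPM against 0.0715 and 0.0570 TPM (log2 difference 1.98). The inhibitor Sufu was at 11.2 and 8.18 TPM against 2.78 and 3.06 TPM (log2 difference 1.43). All 3 were higher in MB1.

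Ptch1, the hedgehog receptor and itself a target of the pathway, was at 15.8 and 12.3 TPM in MB1 and 5.17 and 6.73 TPM in Oli-neu (log2 difference 1.11, SE 0.20, adjusted p = 0.00985). Its adjusted p was 0.0589 without MB1 library 1 and 0.0681 without Oli-neu library 1. Gli1, the target most used to read the pathway, was at 0.153 and 0.112 TPM in MB1 and 0.0505 and 0.0335 TPM in Oli-neu. Gli2, its main activating relative, was at 0.413 and 0.377 TPM in MB1 and 0.00420 and 0 TPM in Oli-neu, so both were under 1 TPM in all 4 libraries. Gli3, which mainly acts as a repressor, was at 1.12 and 0.913 TPM against 2.60 and 3.29 TPM and was called lower in MB1 (log2 difference -0.97, SE 0.15, adjusted p = 0.00617). Hhip, a target that binds hedgehog ligands, was at 1.41 and 1.18 TPM against 0.373 and 0.422 TPM and was called higher (adjusted p = 0.00761).

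Most astrocyte genes were higher in MB1. Of 22, 20 were tested, 14 were higher and 4 lower, with a median log2 difference of 2.52. Mlc1, a membrane protein of astrocyte end feet, was at 124 and 158 TPM in MB1 and 0.0106 and 0.0409 TPM in Oli-neu (log2 difference 7.10, SE 0.17, adjusted p = 9.49e-05). Apoe, a lipid carrier of the brain, was at 1279.9 and 1415 TPM in MB1 and 72.4 and 56.0 TPM in Oli-neu (log2 difference 4.38, SE 0.20, adjusted p = 0.000223), and Sox9, a factor of glial fate, was at 31.2 and 25.2 TPM against 0.550 and 0.659 TPM (log2 difference 4.18, SE 0.16, adjusted p = 0.000161). The glutamate transporter Slc1a3 was at 312 and 280.5 TPM against 44.7 and 35.2 TPM (log2 difference 2.87), so it was present in both lines, and the bicarbonate transporter Slc4a4 was at 19.7 and 15.8 TPM against 0.175 and 0.185 TPM (log2 difference 3.98).

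Other astrocyte genes did not follow. Gfap, the filament protein of mature and reactive astrocytes, overlapped between the lines, at 3.58 and 2.31 TPM in MB1 and 3.03 and 1.63 TPM in Oli-neu, and was not called (adjusted p = 0.481). Aqp4, the water channel of end feet, was under 1 TPM throughout, at 0.717 and 0.357 TPM in MB1 and 0.0142 and 0.0143 TPM in Oli-neu. The calcium-binding protein S100b was lower in MB1, at 32.6 and 34.3 TPM against 179 and 155 TPM (log2 difference -2.28, SE 0.16, adjusted p = 0.000555), as were the receptor Gpr37l1, at 7.33 and 8.53 TPM against 64.1 and 68.4 TPM (log2 difference -2.92), and the aldolase Aldoc, at 266 and 212 TPM against 962 and 903 TPM (log2 difference -1.97).

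Of 24 neural stem cell and radial glia genes, 23 were tested, 18 were higher in MB1 and 2 lower, with a median log2 difference of 1.24. Ednrb, an endothelin receptor, was at 177 and 137 TPM in MB1 and 0 and 0.0397 TPM in Oli-neu (log2 difference 7.26, SE 0.18, adjusted p = 9.49e-05). Hopx, a small homeodomain protein of radial glia, was at 18.1 and 20.0 TPM against 0 and 0.0882 TPM (log2 difference 4.26, SE 0.13, adjusted p = 0.000121). Fabp7, a fatty acid binding protein of radial glia, was abundant in both lines, at 2262 and 2211 TPM in MB1 and 358 and 320.0 TPM in Oli-neu (log2 difference 2.72, SE 0.19, adjusted p = 0.000607), and the filament protein nestin, Nes, was at 51.2 and 56.3 TPM against 9.23 and 9.51 TPM (log2 difference 2.40, SE 0.14, adjusted p = 0.000362). Sox2, which maintains neural stem cells, was at 137 and 138 TPM in MB1 and 185 and 183 TPM in Oli-neu. It was not called (log2 difference -0.42, adjusted p = 0.0754), and its log2 difference was 0.01 with TPM as deposited.

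**Figure D2:**
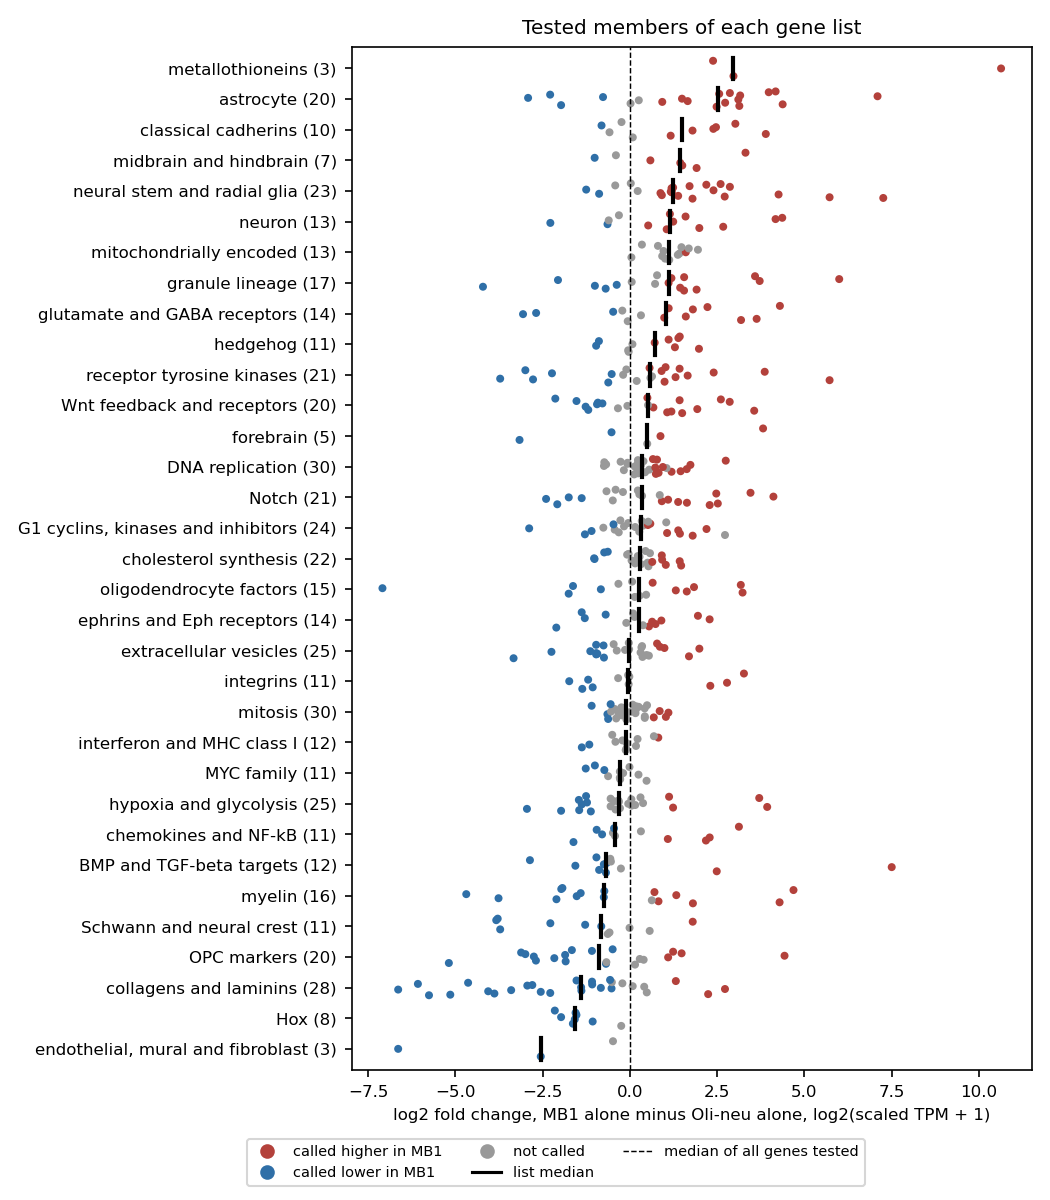
Log2 difference, MB1 alone minus Oli-neu alone, of the tested members of each list, their number in brackets. The bar is the list's median and the dashed line the median of all genes tested, 0.01. Metallothioneins and astrocyte genes have the highest medians, 2.97 and 2.52.

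Neuronal genes were also more often higher in MB1. Of 24, 13 were tested, 9 were higher and 2 lower, with a median log2 difference of 1.15. Stmn3, which binds tubulin, was at 26.3 and 33.0 TPM against 0.418 and 0.532 TPM (log2 difference 4.37, SE 0.17, adjusted p = 0.000161). The neuronal tubulin Tubb3 was at 3.40 and 3.48 TPM against 0.993 and 1.02 TPM (log2 difference 1.15). Dcx, made by young neurons, was under 1 TPM in all 4 libraries, at 0.201 and 0.117 TPM in MB1 and 0.0673 and 0.0837 TPM in Oli-neu. The adhesion molecule L1cam was lower in MB1, at 0.115 and 0.242 TPM against 4.48 and 4.94 TPM (log2 difference -2.28, SE 0.13, adjusted p = 0.000337).

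Genes of Schwann cells and the neural crest were read because Sox10 marks these cells too. Of 20, 11 were tested, 6 were lower in MB1 and 1 higher, with a median log2 difference of -0.82, or -0.42 with TPM as deposited. Tfap2a, a factor of the neural crest, was at 0.365 and 0.274 TPM in MB1 and 17.2 and 18.3 TPM in Oli-neu (log2 difference -3.83, SE 0.13, adjusted p = 0.000124), and Twist1, a mesenchymal factor, was at 0.0375 and 0 TPM against 11.4 and 14.9 TPM (log2 difference -3.79, SE 0.16, adjusted p = 0.000198). The summed level of the list was 58.0 and 51.3 TPM in MB1 and 171 and 166 TPM in Oli-neu. Its part in the differences of the oligodendrocyte lists was not tested.

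Most markers of microglia and blood vessels were under 1 TPM in both lines. Of 16 microglia genes, 14 were under 1 TPM in all 4 libraries, and the defining receptor Csf1r was at 0.00568 and 0 TPM in MB1 and 0.0123 and 0 TPM in Oli-neu. Cd68, a lysosomal protein of phagocytes, was the only one tested, at 4.19 and 5.88 TPM in MB1 and 3.99 and 5.48 TPM in Oli-neu, and was not called (adjusted p = 0.809). Their summed level was 5.64 and 6.62 TPM in MB1 and 5.13 and 6.17 TPM in Oli-neu. Of 16 endothelial, mural and fibroblast genes, 3 were tested and 2, both collagens, were lower in MB1. Pecam1, an adhesion protein of endothelium, was at 0.812 and 1.27 TPM in MB1 and 0.587 and 4.06 TPM in Oli-neu and was not called (adjusted p = 0.514), though it was called lower in MB1 without Oli-neu library 1 (adjusted p = 0.0144), and the VEGF receptor Flt1 was at 1.39 and 0.394 TPM in MB1 and 0.0672 and 0.172 TPM in Oli-neu. Cldn5, a tight junction protein of brain vessels, was listed at 0 in all 4 libraries. The sum of this list was 3.14 and 2.55 TPM in MB1 and 120.1 and 114 TPM in Oli-neu, most of it Col3a1.

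Genes of position along the brain separated the lines. Of 18 midbrain and hindbrain genes, 7 were tested, 5 were higher in MB1 and 1 lower, with a median log2 difference of 1.45. Mab21l1 was at 9.89 and 8.10 TPM in MB1 and listed at 0 in both Oli-neu libraries (adjusted p = 0.000193), and Gbx2, which sets the front edge of the hindbrain, was at 2.79 and 2.53 TPM against 0.186 and 0.401 TPM (log2 difference 1.50, SE 0.14, adjusted p = 0.00124). Irx3 was lower in MB1, at 2.39 and 2.36 TPM against 5.36 and 6.23 TPM (log2 difference -1.01). Of 18 forebrain genes, 5 were tested, 2 higher and 2 lower, with a median of 0.50, or 1.07 with TPM as deposited and 0.10 to 0.91 with 1 library left out. Otx2, a factor of the forebrain and midbrain that granule precursors also use, was at 13.7 and 12.6 TPM in MB1 and listed at 0 in both Oli-neu libraries (adjusted p = 0.000121).

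Hox genes, which mark position along the hindbrain and spinal cord, were mostly under 1 TPM. Of 39, 28 were under 1 TPM in all 4 libraries. Of the 8 tested, 7 were lower in MB1 and 1 was not called, with a median log2 difference of -1.57. Hoxa5 had the highest level in both lines, at 3.28 and 3.49 TPM in MB1 and 13.6 and 9.97 TPM in Oli-neu (log2 difference -1.53, SE 0.18, adjusted p = 0.00294). Other anterior members were Hoxa4, at 1.10 and 1.42 TPM against 8.30 and 7.39 TPM (log2 difference -1.97), and Hoxa3, at 0.856 and 1.19 TPM against 4.36 and 5.76 TPM (log2 difference -1.58). More posterior members were near 0 in MB1. Hoxa7 was at 0.195 and 0.133 TPM in MB1 and 2.38 and 2.46 TPM in Oli-neu and Hoxa10 was at 0 and 0.0158 TPM in MB1 and 2.23 and 2.02 TPM in Oli-neu. At least 1 library reached 1 TPM for 4 of 11 Hoxa genes in MB1 and 8 in Oli-neu. Outside this cluster none did in MB1, while 1 Hoxc and 2 Hoxd genes did in Oli-neu, among them Hoxd8, at 0.0111 and 0.0282 TPM in MB1 and 3.35 and 3.71 TPM in Oli-neu (log2 difference -2.15, SE 0.11, adjusted p = 0.000294). The 10 Hoxb genes stayed under 0.1 TPM in both lines.

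Receptor tyrosine kinases, the cell's sensors for growth factors, differed in opposite directions within the EGF receptor family. Of 39 kinases, 21 were tested, 10 were higher in MB1 and 6 lower, with a median log2 difference of 0.59, or 0.98 with TPM as deposited. Egfr (chromosome 11, 16752203 to 16918158), which binds the EGF of the medium, was at 65.4 and 48.9 TPM in MB1 and 0.137 and 0.0409 TPM in Oli-neu (log2 difference 5.73, SE 0.19, adjusted p = 0.000121). Over every mouse library of the study, deposited Egfr lay between 56.4 and 117 TPM in 4 MB1 libraries and between 0.00266 and 0.116 TPM in 6 Oli-neu libraries. Erbb2 (chromosome 11, 98412470 to 98437716) was at 2.32 and 2.23 TPM in MB1 and 24.0 and 19.1 TPM in Oli-neu (log2 difference -2.77, SE 0.16, adjusted p = 0.000372). Erbb3, the neuregulin receptor that pairs with the product of Erbb2, was at 0.0505 and 0.0417 TPM in MB1 and 12.5 and 13.0 TPM in Oli-neu (log2 difference -3.72, SE 0.12, adjusted p = 0.000121). For each of these 3 receptors the lines did not overlap.

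Receptors for the other supplied factor, bFGF, were present in both lines. Fgfr1 was at 82.6 and 74.3 TPM in MB1 and 32.6 and 29.4 TPM in Oli-neu (log2 difference 1.31, SE 0.15, adjusted p = 0.00259), and Fgfr3 was at 28.1 and 35.3 TPM against 8.12 and 10.7 TPM (log2 difference 1.66, SE 0.20, adjusted p = 0.00297). Both were higher in MB1. Ntrk2, the receptor for BDNF, was at 65.4 and 72.7 TPM against 4.15 and 3.47 TPM (log2 difference 3.87, SE 0.15, adjusted p = 0.000166), and Mertk, a receptor used in phagocytosis, was at 4.93 and 4.22 TPM against 0.0535 and 0.0505 TPM (log2 difference 2.40, SE 0.13, adjusted p = 0.00028). Besides Pdgfra, Oli-neu had more of Kit, the receptor for stem cell factor, at 3.09 and 6.97 TPM in MB1 and 25.7 and 25.9 TPM in Oli-neu (log2 difference -2.23, SE 0.33, adjusted p = 0.00579).

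**Figure D3:**
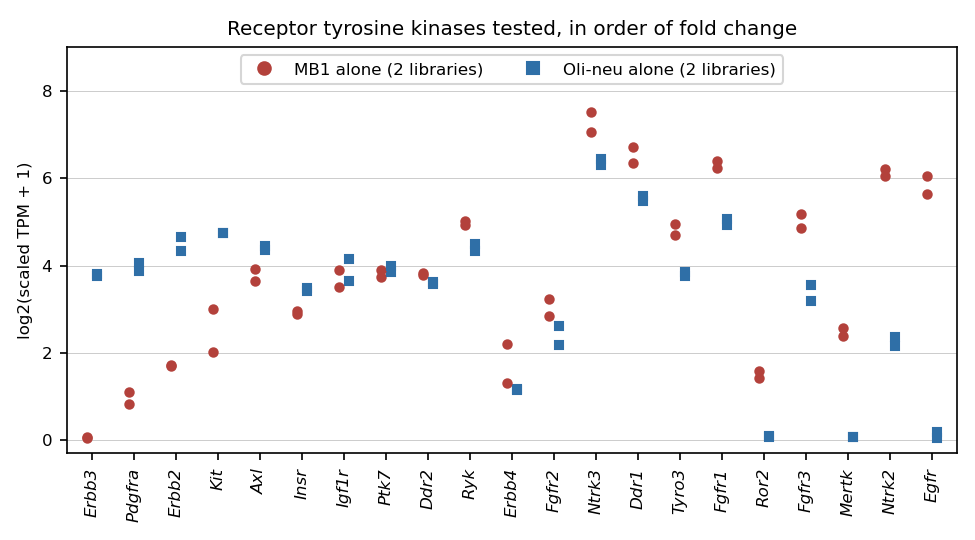
The 21 receptor tyrosine kinases tested, from the lowest to the highest log2 difference, as log2(scaled TPM + 1) in each library, MB1 as circles and Oli-neu as squares. Erbb3, near 0 in MB1, and Egfr, near 0 in Oli-neu, stand at the ends.

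Ephrins and Eph receptors, which guide cells by contact, were divided, with 14 of 22 tested, 6 higher in MB1 and 4 lower (median log2 difference 0.26, or 0.56 with TPM as deposited and 0.13 to 0.36 with 1 library left out). Epha5 was at 5.62 and 4.99 TPM against 0.247 and 0.334 TPM (log2 difference 2.29, SE 0.13, adjusted p = 0.00032), while the ligand Efna1 was at 1.07 and 1.44 TPM against 9.05 and 8.34 TPM (log2 difference -2.11, SE 0.15, adjusted p = 0.000595).

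Notch ligands were divided between the lines, and several modulators were higher in MB1. Of 24 genes, 21 were tested, 9 were higher and 4 lower, with a median log2 difference of 0.35, or 0.61 with TPM as deposited. The ligand Dll1 was at 30.9 and 30.3 TPM against 4.84 and 6.17 TPM (log2 difference 2.29, SE 0.16, adjusted p = 0.000597), while Jag1 was at 9.85 and 6.76 TPM against 24.5 and 21.3 TPM (log2 difference -1.38, SE 0.21, adjusted p = 0.0062), and Jag2 and Dll3 were lower in MB1 too (log2 differences -1.75 and -2.08). The receptor Notch3 was at 4.95 and 6.47 TPM against 0.209 and 0.184 TPM (log2 difference 2.48). Lfng, the glycosyltransferase that tunes Notch to its ligands, was at 50.7 and 40.3 TPM in MB1 and 1.71 and 1.62 TPM in Oli-neu (log2 difference 4.12, SE 0.17, adjusted p = 0.000173). Nrarp, a target and inhibitor of Notch, was at 10.6 and 9.61 TPM against 0 and 0.0213 TPM (log2 difference 3.46, SE 0.12, adjusted p = 0.000142), whereas the target Hey2 was lower in MB1, at 0.749 and 0.712 TPM against 8.36 and 7.91 TPM (log2 difference -2.40, SE 0.12, adjusted p = 0.000268). The targets Hes1, Hes5 and Hey1 were higher in MB1 too (log2 differences 1.39, 0.92 and 1.10), so Hey2 was the only one of these 5 targets called lower. Hes5 was not called without Oli-neu library 2 (adjusted p = 0.0547).

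Wnt receptors and feedback genes were also divided, with 20 of 28 tested, 10 higher in MB1 and 7 lower (median log2 difference 0.51, or 0.79 with TPM as deposited). The receptor Fzd10 was at 10.7 and 10.9 TPM in MB1 and listed at 0 in both Oli-neu libraries (adjusted p = 0.000121). Nkd1, a feedback inhibitor that Wnt signals induce, was at 16.8 and 17.4 TPM against 1.51 and 1.47 TPM (log2 difference 2.86, SE 0.13, adjusted p = 0.000209), while its relative Nkd2 was at 0.0967 and 0.173 TPM against 2.52 and 2.04 TPM (log2 difference -1.53, SE 0.13, adjusted p = 0.00103). The secreted inhibitor Wif1 was lower in MB1, at 0.960 and 0.784 TPM against 6.77 and 7.69 TPM (log2 difference -2.14).

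Genes of the BMP and TGF-beta pathways were mostly lower in MB1, with 12 of 22 tested, 7 lower and 2 higher (median log2 difference -0.67, or -0.38 with TPM as deposited). The ligand Tgfb1 was at 0.430 and 0.780 TPM against 9.96 and 11.3 TPM (log2 difference -2.86, SE 0.17, adjusted p = 0.000362), and Id4, an inhibitor of helix-loop-helix factors, was at 2.57 and 1.60 TPM against 9.04 and 7.04 TPM (log2 difference -1.56). The 2 genes higher in MB1 were the ligand Bmp7, at 17.6 and 19.1 TPM against 2.46 and 2.42 TPM (log2 difference 2.49, SE 0.13, adjusted p = 0.000294), and Id3, a relative of Id4, at 225 and 164 TPM in MB1 and 0 and 0.128 TPM in Oli-neu (log2 difference 7.51, SE 0.20, adjusted p = 0.000106). The related Id genes thus lay on opposite sides.

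Extracellular matrix set Oli-neu apart. Of 37 collagen and laminin genes, 28 were tested, 20 were lower in MB1 and 3 higher, with a median log2 difference of -1.39. The list summed to 263 and 328 TPM in MB1 and 1346 and 1349 TPM in Oli-neu. Col3a1, a fibrillar collagen of connective tissue, was at 0.179 and 0.00450 TPM in MB1 and 112 and 103 TPM in Oli-neu (log2 difference -6.64, SE 0.15, adjusted p = 9.49e-05). Collagens of cartilage were also low in MB1, with Col9a1 at 0.941 and 0.962 TPM against 123 and 138 TPM (log2 difference -6.07, SE 0.14, adjusted p = 9.49e-05) and Col11a1 at 4.26 and 5.89 TPM against 339.7 and 309 TPM (log2 difference -5.76, SE 0.19, adjusted p = 0.000121). The 3 members higher in MB1 were Col4a1, a basement membrane collagen, at 4.76 and 7.16 TPM against 0.0114 and 0.0591 TPM (log2 difference 2.73, SE 0.20, adjusted p = 0.000626), Col12a1 (log2 difference 2.24) and the laminin chain Lamb2. Lamb2 was at 30.3 and 51.8 TPM against 14.2 and 16.5 TPM (log2 difference 1.32, SE 0.28, adjusted p = 0.0171), and its adjusted p was 0.0762 without Oli-neu library 1 and 0.0539 without Oli-neu library 2.

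Integrins, which bind the matrix, were divided, with 11 of 21 tested, 3 higher in MB1 and 4 lower. Itgb8 was at 23.9 and 16.9 TPM against 1.20 and 1.18 TPM (log2 difference 3.27, SE 0.20, adjusted p = 0.0004), while Itga8 was at 0.706 and 0.658 TPM against 4.67 and 4.53 TPM (log2 difference -1.74, SE 0.12, adjusted p = 0.000535). The integrin median, -0.05, was 0.37 with TPM as deposited and 0.14 with an equal total, or -0.21 to -0.14 with 1 library left out. Cadherins, which join like cells, were mostly higher in MB1, with 10 of 19 tested, 6 higher and 1 lower (median log2 difference 1.48). Cdh13 was at 56.3 and 39.4 TPM against 2.50 and 1.98 TPM (log2 difference 3.90, SE 0.22, adjusted p = 0.000339), and Cdh4 was at 17.3 and 16.1 TPM against 1.02 and 1.34 TPM (log2 difference 3.02, SE 0.15, adjusted p = 0.000235).

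Receptors for glutamate and GABA were higher in MB1 for 8 of 14 tested (29 listed) and lower for 3, with a median log2 difference of 1.05. The metabotropic glutamate receptor Grm5 was at 22.5 and 16.1 TPM in MB1 and 0.0227 and 0.00881 TPM in Oli-neu (log2 difference 4.30, SE 0.19, adjusted p = 0.000209). Gabrg1, a subunit of the GABA-A receptor, was at 14.1 and 9.21 TPM in MB1 and listed at 0 in both Oli-neu libraries (adjusted p = 0.000379). The 3 genes lower in MB1 were kainate receptors, among them Grik2, at 0.165 and 0.200 TPM against 11.1 and 7.02 TPM (log2 difference -3.06, SE 0.22, adjusted p = 0.000652).

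Cell cycle genes were transcribed in both lines, and the shares called were near or below that of all genes tested. All 24 G1 genes were tested, 7 were higher in MB1 and 4 lower, with a median log2 difference of 0.31, or 0.71 with TPM as deposited and 0.20 to 0.31 with 1 library left out. Cdkn2a, which encodes the inhibitors p16 and p19ARF, was at 20.5 and 33.0 TPM in MB1 and 178 and 221 TPM in Oli-neu (log2 difference -2.88, SE 0.27, adjusted p = 0.00137). Cyclin D1, Ccnd1, was at 263 and 263 TPM against 81.9 and 68.1 TPM (log2 difference 1.80, SE 0.17, adjusted p = 0.00139), while cyclin D3, Ccnd3, was at 85.3 and 108 TPM against 249 and 223 TPM (log2 difference -1.29, SE 0.19, adjusted p = 0.00563). Cyclin D2, Ccnd2, spread widely within each line, at 349 and 156 TPM in MB1 and 89.0 and 12.9 TPM in Oli-neu, and was not called (adjusted p = 0.0686). Library 1 was the higher in both lines. Ccnd2 was called higher in MB1 with TPM as deposited (adjusted p = 0.0387) and with the replicate number as a block (adjusted p = 0.00162). It was also called higher in co-culture (log2 difference 3.73, adjusted p = 0.000852). Without Oli-neu library 1 its monoculture log2 difference was 4.06. The tumour suppressor Trp53 was at 39.1 and 39.5 TPM in MB1 and 46.8 and 48.4 TPM in Oli-neu. It was not called (log2 difference -0.27, adjusted p = 0.164), and its log2 difference was 0.15 with TPM as deposited.

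All 30 replication genes were tested, 11 were higher in MB1 and the others were not called, with a median log2 difference of 0.36, or 0.77 with TPM as deposited. Rrm2, which makes deoxynucleotides, was at 58.9 and 48.2 TPM against 7.05 and 7.10 TPM (log2 difference 2.75, SE 0.16, adjusted p = 0.000362), and Pcna, the clamp of the polymerase, was at 221 and 179.6 TPM against 53.4 and 65.3 TPM (log2 difference 1.74, SE 0.19, adjusted p = 0.00236). Mitosis genes had no such lean, with 4 of 30 higher and 4 lower, and a median of -0.10 that was 0.32 with TPM as deposited and 0.09 with an equal total, or -0.14 to 0.03 with 1 library left out. Of 11 MYC family genes, 3 were lower in MB1 and the others were not called. Myc was at 32.2 and 26.5 TPM in MB1 and 80.5 and 63.7 TPM in Oli-neu (log2 difference -1.26, SE 0.19, adjusted p = 0.00614). The family's median, -0.29, was 0.13 with TPM as deposited.

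Metallothioneins, small proteins that bind zinc and copper, were higher in MB1 for all 3 tested of 4, with a median log2 difference of 2.97. Mt2 (chromosome 8, 94172664 to 94173568) was at 1604 and 1585 TPM in MB1 and listed at 0 in both Oli-neu libraries (adjusted p = 8.19e-05). Its neighbour Mt1 was present in both lines, at 1912 and 2316 TPM in MB1 and 269 and 266 TPM in Oli-neu (log2 difference 2.97, SE 0.20, adjusted p = 0.000553). Mt3, the form first found in brain, was at 325 and 535 TPM against 78.0 and 80.1 TPM (log2 difference 2.39, SE 0.27, adjusted p = 0.00256). Over every mouse library, deposited Mt2 lay between 1372 and 1869 TPM in MB1 and between 0 and 1.66 TPM in Oli-neu, where the median was 0. Mt2 was thus absent from the listed values of most Oli-neu libraries while Mt1 was not.

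Hypoxia and glycolysis genes were lower in MB1 for 8 of 25 tested (26 listed) and higher for 4. The median log2 difference, -0.32, was 0.10 with TPM as deposited, or -0.42 to -0.19 with 1 library left out. Car9, a carbonic anhydrase that cells make under low oxygen, was at 11.1 and 12.4 TPM in MB1 and 107 and 88.8 TPM in Oli-neu (log2 difference -2.95, SE 0.17, adjusted p = 0.000337). Ankrd37, also induced by low oxygen, was at 54.0 and 53.3 TPM against 149 and 147 TPM (log2 difference -1.45, SE 0.14, adjusted p = 0.00155), and the phosphofructokinase Pfkp was at 27.4 and 30.8 TPM against 81.7 and 81.7 TPM (log2 difference -1.46, SE 0.15, adjusted p = 0.00163). For these 3 the lines did not overlap. Enolase 2, Eno2, and the lactate exporter Slc16a3 were instead near 0 in Oli-neu, Eno2 at 12.6 and 17.4 TPM against 0 and 0.0627 TPM (log2 difference 3.94, SE 0.19, adjusted p = 0.000226) and Slc16a3 at 9.13 and 16.5 TPM against 0 and 0.0397 TPM (log2 difference 3.71, SE 0.28, adjusted p = 0.000709).

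The Pfkp promoter is shown as an example of a called member's start region, because hypoxia-inducible factors are known to act on genes of this list, and it was chosen after the values were seen. The window is the 250 bases before the RefSeq start, read on the minus strand of GRCm38.p6, and capitals mark the core ACGTG or GCGTG on either strand. Its last 6 bases lie inside the gene by the GENCODE start.
Pfkp, chr13:6648772-6649021: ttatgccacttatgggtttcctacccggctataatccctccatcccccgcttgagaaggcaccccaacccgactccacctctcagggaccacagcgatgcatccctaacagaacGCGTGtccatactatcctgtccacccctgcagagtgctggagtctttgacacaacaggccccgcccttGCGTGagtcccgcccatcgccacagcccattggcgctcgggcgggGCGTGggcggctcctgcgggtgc
Pfkp held 3 matches, and the windows of Car9 and Ankrd37 held 1 and 4. Of 32851 RefSeq promoter windows of this length, 38.6% held at least 1. The share of windows with 3 or more was not computed, so how unusual the count of Pfkp is cannot be told.

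Cholesterol synthesis genes were all tested, 6 of 22 higher in MB1 and 4 lower (median log2 difference 0.30, or 0.72 with TPM as deposited). Hmgcs1, an early enzyme of the pathway, was at 246 and 278 TPM against 89.5 and 104 TPM (log2 difference 1.43, SE 0.17, adjusted p = 0.003). Mitochondrially encoded genes varied within the lines. They held 9.56% and 5.73% of deposited TPM in MB1 and 1.93% and 4.0% in Oli-neu, and 1 of 13 was called, with a median log2 difference of 1.13, or 0.70 to 1.93 with 1 library left out. In co-culture 10 of the 13 were called higher.

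Extracellular vesicle genes were higher in MB1 for 5 and lower for 9 of 25 tested (30 listed). Anxa2, an annexin that binds membranes, was at 33.4 and 36.7 TPM in MB1 and 378 and 346 TPM in Oli-neu (log2 difference -3.33, SE 0.16, adjusted p = 0.000223), and the flotillin Flot1 was at 60.3 and 77.1 TPM against 331 and 324 TPM (log2 difference -2.25, SE 0.19, adjusted p = 0.000939). Rab31, a small GTPase of endosomes, was higher in MB1, at 125 and 132 TPM against 31.9 and 31.2 TPM (log2 difference 1.99, SE 0.14, adjusted p = 0.000601). The tetraspanins Cd63 and Cd81, common vesicle markers, were abundant in both lines and were not called in monoculture. Cd63 was at 556 and 708 TPM against 399 and 462 TPM and Cd81 at 591 and 774 TPM against 467 and 503 TPM. In co-culture both were called higher in MB1, Cd63 with a log2 difference of 1.12 (adjusted p = 0.00159) and Cd81 with 0.62 (adjusted p = 0.016). The list's median, -0.03, was 0.39 with TPM as deposited and 0.16 with an equal total, or -0.17 to 0.05 with 1 library left out.

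In monoculture, interferon and MHC class I genes were called in a smaller share than all genes tested. Chemokine and NF-kB genes were called in both directions. Of 20 interferon and MHC class I genes, 12 were tested, 1 was higher in MB1 and 2 lower, with a median of -0.11 that was 0.20 with TPM as deposited and 0.04 with an equal total, or -0.25 to 0.03 with 1 library left out. H2-D1, an MHC class I heavy chain whose reads close relatives may share, was at 19.3 and 22.9 TPM against 51.1 and 61.5 TPM (log2 difference -1.38, SE 0.17, adjusted p = 0.00346). Of 21 chemokine and NF-kB genes, 11 were tested, 4 were higher and 4 lower, with a median of -0.42, or -0.04 with TPM as deposited. The adhesion molecule Vcam1 was at 9.80 and 9.19 TPM against 0.199 and 0.203 TPM (log2 difference 3.13, SE 0.12, adjusted p = 0.000161), and the chemokine Ccl5 was at 0.116 and 0.0961 TPM against 2.75 and 2.06 TPM (log2 difference -1.61, SE 0.14, adjusted p = 0.00111).

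Outside the lists, the protein-coding genes farthest apart were named by rule. Igfbp2, which binds insulin-like growth factors, was at 896 and 1219 TPM in MB1 and 0.220 and 0.135 TPM in Oli-neu (log2 difference 9.80, SE 0.20, adjusted p = 9.49e-05). Gpm6a, a neuronal membrane glycoprotein, was at 146 and 141 TPM in MB1 and listed at 0 in both Oli-neu libraries (adjusted p = 9.49e-05). Dbx2, a homeobox factor of progenitors, was at 126 and 116 TPM against 0.102 and 0.165 TPM (log2 difference 6.75, SE 0.14, adjusted p = 9.49e-05). Also among the 12 highest were S100a10, Nrn1, Mgst1 and Gstt1, besides Mt2, Id3, Ednrb and Mlc1, described above. All of these were near 0 in Oli-neu.

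On the other side, Mgp, an inhibitor of calcification, was at 1.18 and 0.220 TPM in MB1 and 1251 and 741 TPM in Oli-neu (log2 difference -9.21, SE 0.38, adjusted p = 0.000182). Periostin, Postn, a matrix protein, was at 0.271 and 0 TPM in MB1 and 268 and 165 TPM in Oli-neu (log2 difference -7.55, SE 0.28, adjusted p = 0.000151), and the guidance factor Sema3d was at 0.284 and 0.0632 TPM against 127 and 126 TPM (log2 difference -6.77, SE 0.16, adjusted p = 9.49e-05). Also among the 12 lowest were Anxa1, Mlip, Rcn3, Tm4sf1 and Fxyd1, besides Sox10, Col3a1 and Col9a1. Eno1b, the last of the 12, is a near-identical copy of Eno1, so the split of their reads is uncertain. Eno1b was at 11.6 and 0.345 TPM in MB1 and 1089 and 966 TPM in Oli-neu, while both copies summed to 3000.3 and 3461 TPM in MB1 and 2393 and 2387 TPM in Oli-neu.

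Y-linked genes separated the lines. The RNA helicase gene Ddx3y was at 15.0 and 12.7 TPM in MB1 and 0 and 0.0149 TPM in Oli-neu (log2 difference 3.88, SE 0.14, adjusted p = 0.000142), and Eif2s3y, a subunit of a translation factor, was at 60.7 and 49.9 TPM against 0 and 0.00762 TPM (log2 difference 5.80, SE 0.15, adjusted p = 0.000106). Kdm5d and Uty, both histone demethylase genes, were lower in Oli-neu but above 0, Kdm5d at 7.43 and 6.10 TPM against 1.13 and 0.779 TPM (log2 difference 1.99, SE 0.17, adjusted p = 0.00095) and Uty at 8.78 and 6.54 TPM against 1.73 and 1.21 TPM (log2 difference 1.81, SE 0.20, adjusted p = 0.00217). Of 7 Y genes tested, 5 were higher in MB1 and 1 lower. Xist was not analysed here.

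Among the other chromosomes, 15 and 11 leaned most to Oli-neu. Chromosome 15, which holds Sox10, had a median log2 difference of -0.43, with 200 of 461 genes lower in MB1 and 59 higher. All 6 of its 20 Mb bins with at least 20 genes had medians under 0, from -0.65 to -0.19. Chromosome 11, which holds Egfr and Erbb2, had a median of -0.31, with 335 of 948 genes lower and 141 higher, and its 7 bins ranged from -0.37 to -0.19. The next lowest medians were those of chromosomes 17, 5 and 6, at -0.18, -0.12 and -0.10. All 8 bins of chromosome 5 also had medians under 0, from -0.23 to -0.007, so this trait was not particular to chromosomes 15 and 11. The highest autosomal medians were those of chromosomes 12 and 14, 0.26 and 0.25. With TPM as deposited, the median was -0.06 for chromosome 15 and 0.08 for chromosome 11, against 0.39 for all genes. DNA copy number was not measured.

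**Figure D4:**
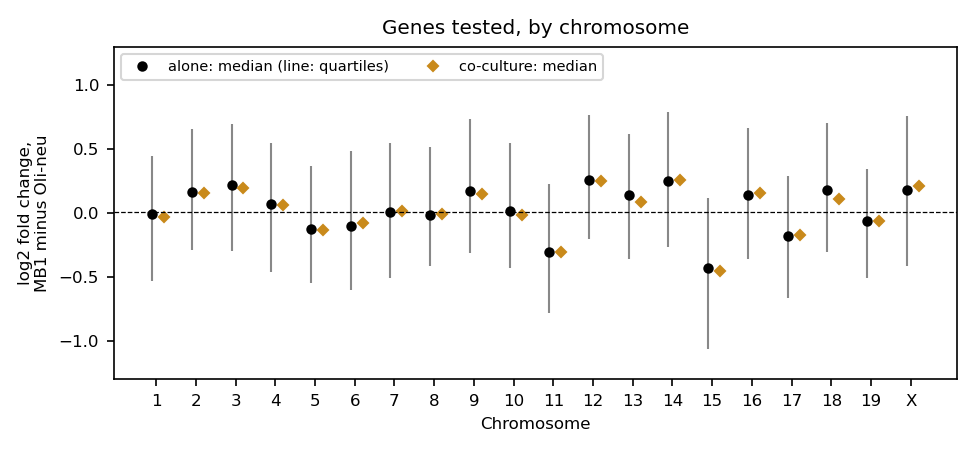
Median log2 difference, MB1 minus Oli-neu, of the genes tested on each autosome and on X, as circles for monoculture with lines for the quartiles of the genes, and as diamonds for co-culture. The dashed line is the median of all genes. Chromosomes 15 and 11 lie lowest, at -0.43 and -0.31 in monoculture and -0.45 and -0.31 in co-culture.

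The same lines grown beside each other gave 4 further libraries, which share none with the comparison above. Of 11707 genes tested there, 3168 were higher in MB1 (27.1%) and 2899 lower (24.8%). Of the genes higher in monoculture, 2373 were called higher again, 83.9% of the monoculture list and 74.9% of the co-culture list, and 3 were called lower. Of those lower, 2124 were called lower again, 84.5% and 73.3% of the lists, and 1 was called higher. Without MB1 co-culture library 1, 2008 genes were higher and 1527 lower, and without its library 2, 1644 were lower. Sox10, Olig2, Pax6, Egfr, Erbb3 and Smo repeated their calls, with co-culture log2 differences of -7.39 for Sox10, 0.97 for Olig2, 3.47 for Pax6, 6.45 for Egfr, -3.78 for Erbb3 and 0.95 for Smo. Gfap, not called in monoculture, was called higher in MB1 in co-culture (log2 difference 1.26, adjusted p = 0.00239), and Neurod1 and Hhip were not tested there.

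**Figure D5:**
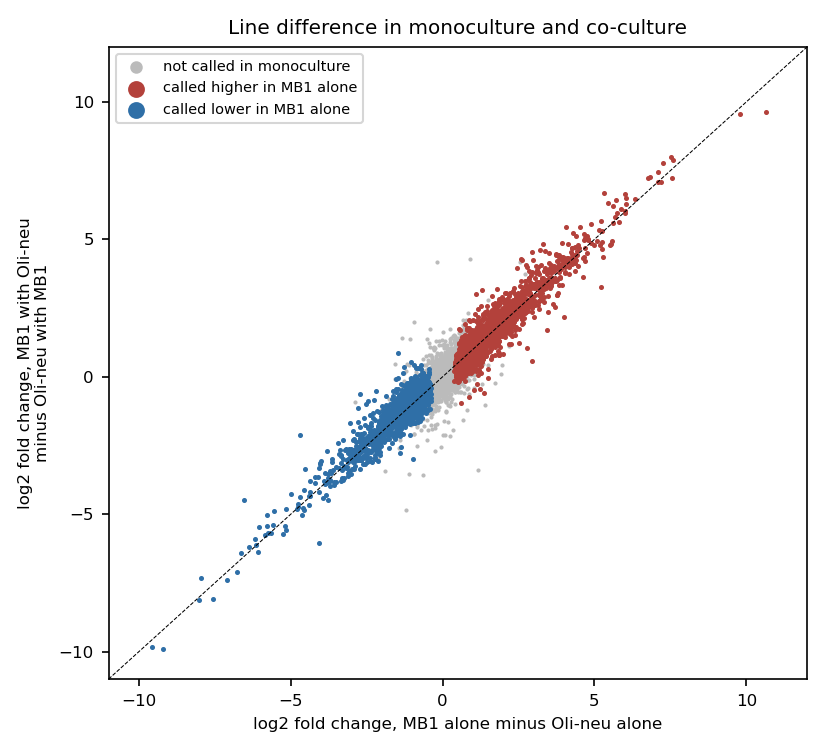
Log2 difference between MB1 and Oli-neu of each gene tested in both cultures, in monoculture (x) and co-culture (y), coloured by the monoculture call, with the line of equal differences dashed. Most called genes lie on the same side of 0 on both axes, 2373 of 2828 higher genes being called higher again.

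Whether the difference between the lines changed with the culture was tested as an interaction over these 8 libraries. Of 12114 genes, 4 (0.033%) were called with limma, the chemokines Ccl2 and Cxcl1, the calcium-binding protein S100a6 and the predicted gene Gm10985. All but S100a6 passed the filter on low values only through the co-culture group where they were high. An unadjusted p under 0.05 was reached by 914 genes, against 605.7 expected if no gene differed. Leaving out any 1 library gave 2 or 3 calls, 2 of them without MB1 library 2 or Oli-neu library 2 alone, or without any 1 of the 4 co-culture libraries. The genes tested were then those of the full fit, and when low values were filtered again limma called 0 genes without any 1 co-culture library, with 730 to 823 at an unadjusted p under 0.05.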

How the data were processed

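Poly(A) RNA libraries (NEBNext Ultra II Directional) were sequenced for 75 cycles on a NextSeq500, per the labels' protocols. FastQC 0.11.8, MultiQC 1.7, Salmon 0.14.1, DESeq2 1.22.2 and the builds GRCm38 and GRCh38 are named in the submitters' processing notes, with no role or order. The authors deposited 1 table per cell line with a TPM value for each gene and library. The unit is known from each column's total of 1000000. TPM keeps no depth, so no counting interval can be given and no count model was used.

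The MB1 and Oli-neu tables were joined on the mouse gene identifier, and 35099 of 35288 identifiers matched GENCODE M21 (GRCm38), the source of coordinates and pseudogene labels. The 12729 pseudogenes were left out. The promoter sequence is from RefSeq (GRCm38.p6). The D341 tables and the Oli-neu libraries grown beside D341 entered no comparison, and the latter appear only in the alternative with all 10 mouse libraries and in ranges over them.

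The 4 libraries were scaled together by median ratios and tested with limma 3.58.1 in R 4.3.3, on log2(TPM + 1), with a variance trend, two-sided, for genes at 1 or more scaled TPM in 2 or more libraries, with Benjamini-Hochberg adjustment over all genes tested and a threshold of 0.05. The co-culture libraries were tested in the same way, and the interaction in a fit of 8 libraries. The tests were run on simulated data with known differences first. With 2 libraries a line, an exact permutation test over libraries could not reach the threshold, and none was used. Alternatives changed the pseudocount, the filter, the scaling, the genes kept, the variance model, a minimum difference, a block by replicate number, the libraries fitted, and left out each library in turn. In the last case the lone library was assumed to vary like the other line.

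The libraries and the gene lists were chosen with earlier results of these data known. Named genes were the 12 highest and 12 lowest called protein-coding genes with at least 10 TPM in a line and no overlap, leaving out unnamed gene models and mitochondrial genes, up to 4 called members of each list in each direction, a set of identity genes whatever their values, the 5 genes with the smallest interaction p, and members of the Hox, receptor kinase, hedgehog and oligodendrocyte factor lists. Dll1, Fabp7, Ccnd2, Cd63, Cd81, Aqp4, Mog, Dcx, Cnp, Qdpr, Hes1, Hes5, Hey1, Cd68, Pecam1, Cldn5, Eif2s3y, Kdm5d, Uty, the genes of the last section and the copy Eno1 were named after their values were seen. Some genes that this rule names are not reported here. Tables were handled with Python 3.11.15, pandas 2.3.3 and numpy 2.4.6.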

Additional observations from a re-analysis of the deposited data

Results flagged for a closer look

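An interaction test with limma over 8 libraries called 4 genes for a difference between the lines that changed with the culture. Of these, Ccl2, Cxcl1 and Gm10985 reached 1 TPM only in the co-culture group where they were high. They passed the filter on low values only through that group, so their calls give no independent support for the change. Values are TPM scaled over these 8 libraries, and a change in the log2 difference is co-culture minus monoculture. Ccl2, a chemokine for monocytes, changed by 2.82 (SE 0.17, adjusted p = 0.00321). It was at 0.497 and 0.365 TPM in MB1 alone and 9.45 and 8.54 TPM in MB1 with Oli-neu, and under 0.1 TPM in all 4 Oli-neu libraries. Cxcl1, a chemokine for neutrophils, changed by 2.09 (SE 0.17, adjusted p = 0.0151), from 0 and 0.125 TPM in MB1 alone to 3.79 and 3.37 TPM in MB1 with Oli-neu. Both chemokines were thus near 0 in MB1 alone and above 3 TPM beside Oli-neu.

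S100a6, a calcium-binding protein, changed by 2.30 (SE 0.17, adjusted p = 0.0125). It was at 3.25 and 3.57 TPM in MB1 alone and 8.84 and 10.3 TPM in MB1 with Oli-neu, and at 11.2 and 10.7 TPM in Oli-neu alone and 4.86 and 4.71 TPM in Oli-neu with MB1. The order of the lines was thus opposite in the 2 cultures. Gm10985, a predicted gene, changed by -2.96 (adjusted p = 0.00321). It was listed at 0 in 6 libraries and at 7.28 and 6.30 TPM in Oli-neu with MB1.

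Clu, which encodes the secreted chaperone clusterin, had the next smallest p and was not called (adjusted p = 0.0703), at 6.41 and 6.71 TPM in MB1 alone and 17.4 and 18.8 TPM in MB1 with Oli-neu. Clu was called with a pseudocount of 5 (adjusted p = 0.0123). Leaving out any 1 library ended the calls of S100a6 and Cxcl1 (adjusted p 0.0576 to 0.0974 and 0.0576 to 0.135). A pseudocount of 0.1 ended those of Ccl2 and Cxcl1 (adjusted p = 0.132 and 0.239).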

How the results depend on the processing

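With TPM as deposited, 4822 genes were higher in MB1 and 1431 lower in monoculture, and 1887 were lower in co-culture. A test against a minimum log2 difference of 1 left 693 higher and 438 lower. The other alternatives run kept the counts within 1.5 times, except where a library was left out, and in co-culture these were the pseudocounts, no filter and the block. Leaving out 1 library gave 1649 to 2369 higher and 1401 to 1960 lower genes in monoculture, 2008 to 2746 and 1527 to 2440 in co-culture, and 2 to 3 interaction genes. The filter on low values then stayed that of all libraries, a choice made after seeing the data. Filtering again gave 1745 higher and 1986 lower genes without MB1 library 1, 1928 higher and 2283 lower genes without MB1 library 2, 1989 higher and 1314 lower genes without Oli-neu library 1 and 2005 and 1464 without Oli-neu library 2. In co-culture it gave 1655 and 1832 higher genes without MB1 library 1 and 2 in turn. For the interaction it gave 2 genes without MB1 library 1, MB1 library 2 or Oli-neu library 2 of the monocultures, and 0 by limma without any 1 co-culture library, where 730 to 823 genes had an unadjusted p under 0.05. The interaction gave 11 genes with a pseudocount of 5 and 11 with no filter. The cause of these shifts was not tested.

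With the replicate number as a block, 3196 genes were higher and 2905 lower in monoculture, 3111 and 2798 in co-culture, and 3 differed between cultures. Cxcl1 was not called with it (adjusted p = 0.0589), Ccnd2 was (adjusted p = 0.00162), and Neurod1 was not (0.0581). Deviations of same-numbered libraries correlated with r = 0.45 across genes, which are not independent replicates, and with 2 pairs no pairing was assumed.

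Of 2778 pairs of a named gene and an alternative, 2695 kept direction and call, 67 lost and 10 gained a call, and 6 changed sign, none of them called. With TPM as deposited the log2 difference was 0.00620 for Sox2 and 0.146 for Trp53. Leaving out 1 library gave -0.0587 to 0.564 for Gfap, -0.133 to 0.284 for Cd68 and -1.36 to 0.359 for Pecam1. Ccnd2 (adjusted p = 0.0387), Cd63 (0.016) and Cd81 (0.0193) were called higher in MB1 with TPM as deposited. Cd63 was also called higher with an equal total (0.04) and in a fit of all 10 mouse libraries (0.0419). Sox2 was called lower with no variance trend (0.0493) and in the fit of all 10 mouse libraries (0.0189). Eno1, whose reads Eno1b may share, lost its call without either MB1 library or without Oli-neu library 1. TPM keeps no depth, so no counting interval can be given, and a difference between values well under 1 TPM cannot be judged.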

Other observations

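Some genes stood at an extreme in every mouse library of the study, co-cultures included. The limits used to find them were chosen after the values were seen, and no test is given. Of 5834 genes with at least 10 deposited TPM in all 4 MB1 libraries, 41 (0.703%) were under 0.1 TPM in all 6 Oli-neu libraries. Of 4924 genes with at least 10 TPM in all 6 Oli-neu libraries, 6 (0.122%) were under 0.1 TPM in all 4 MB1 libraries. With a limit of 0.5 TPM the counts were 94 and 18.

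The genes near 0 in Oli-neu include Grm5, Gabrg1, Fzd10 and Gpm6a, described above, and also genes that many cell types use. Hexa, a lysosomal hexosaminidase, had a lowest, median and highest value of 58.9, 76.1 and 81.0 TPM in MB1 and of 0, 0 and 0.0879 TPM in Oli-neu. Cav1, the coat protein of caveolae, was at 17.7 to 22.5 TPM in MB1 and 0 to 0.0787 TPM in Oli-neu. Gusb, a lysosomal glucuronidase outside the lower limit, was at 17.6 to 21.6 TPM in MB1 and 0.0271 to 0.284 TPM in Oli-neu. The 6 genes near 0 in MB1 were Capn6, Gm10184, Gm5244, Myo5b, Rbpjl and Snorc. Capn6, of the calpain family, had a median of 15.4 TPM in Oli-neu and 0.0169 to 0.0864 TPM in MB1.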
